A study of Glycine max with 3 samples.

Results

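Lipoxygenase gene models on soybean chromosomes 13, 15 and 7 were followed across 3 compartments of the developing seed. The 10 members were chosen by identifier, as gene models of the lipoxygenase family, out of 66210 gene models listed in every library. They form 3 runs in identifier order, with 4 members on chromosome 13, 3 on chromosome 15 and 3 on chromosome 7. The list of members names Glyma13g42320 as LOX1, Glyma13g42310 as LOX2 and Glyma15g03030 as LOX3, the seed isozymes, and gives the other 7 no name. RefSeq (assembly Glycine_max_v4.0) matched 0 of the 66210 identifiers. It lists genes named LOX2 and LOX1.1 as neighbouring protein-coding genes on chromosome 13, and LOX3 on chromosome 15, the chromosomes that the identifiers carry. No length, sequence or position is given for the members, because the reference used here pairs none of their identifiers with a gene.

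All RNA came from 1 soybean (Glycine max) cultivar, Asgrow A3237, with no other genotype and no treatment. The seed coat parenchyma, a maternal layer around the embryo, was cut by laser from sections of 8 µm of early maturation-stage seeds 6.0 to 7.0 mm long. The embryo proper and the suspensor region were cut from sections of 6 µm of globular-stage embryos in pods 0.5 to 1.2 cm long. From the embryo proper the seedling develops, and the suspensor is the stalk that anchors it. The suspensor library is labelled suspensor region and is called suspensor here. Whether that region held cells other than those of the suspensor was not tested. Each compartment was represented by 1 library, so no value has a replicate, no test between compartments exists, and every interval covers counting error only. Stage, section thickness and microdissection instrument differ between the seed coat and the embryo libraries and cannot be told apart from tissue. The labelled tissues could not be checked against marker genes, since the identifiers could not be paired with names. In such bulk samples, fewer cells of a type and less RNA per cell cannot be told apart.

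Lipoxygenases are iron-containing enzymes that add oxygen to linoleic and linolenic acid and so form fatty acid hydroperoxides. These hydroperoxides feed the synthesis of jasmonates, which are plant hormones, and of the short volatile aldehydes released from damaged tissue. In soybean the isozymes LOX1, LOX2 and LOX3 are known as abundant proteins of the mature seed, where their products give the beany flavour of soy foods, and other lipoxygenases of soybean are known from leaves and pods.

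The lipoxygenase reads were many in the seed coat parenchyma and in the suspensor and few in the embryo proper, and different gene models supplied them. The 10 members together had 18278 reads in the seed coat parenchyma, 640 in the embryo proper and 5524 in the suspensor. These were 0.154% of the seed coat library (95% Wilson interval 0.151 to 0.156%), 0.00552% of the embryo proper library (0.00510 to 0.00596%) and 0.0660% of the suspensor library (0.0643 to 0.0678%). The libraries held 11894273, 11603055 and 8365831 assigned reads, in the same order. On the scale of CPM, reads for each 1000000 reads after TMM scaling of the library totals, the summed levels were 1270 CPM for the seed coat parenchyma, 55.5 CPM for the embryo proper and 794 CPM for the suspensor. The seed coat sum was 22.9 times that of the embryo proper (counting interval 21.2 to 24.8) and 1.60 times that of the suspensor (1.55 to 1.65).

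Of the members, Glyma15g03040 held the largest part of the family's reads in the seed coat parenchyma and in the embryo proper, and LOX3 held nearly all of them in the suspensor. Glyma15g03040 took 50.8% of the members' reads in the seed coat parenchyma, 71.2% in the embryo proper and 2.72% in the suspensor. LOX3 took 0.246% in the seed coat parenchyma, 8.44% in the embryo proper and 93.6% in the suspensor. LOX1, LOX2 and LOX3 together had 86 of 18278 member reads in the seed coat parenchyma (0.471%), 58 of 640 in the embryo proper (9.06%) and 5343 of 5524 in the suspensor (96.7%). The chromosome 7 members supplied 12.2% of the members' reads in the seed coat parenchyma, 0.156% in the embryo proper and 0 of 5524 in the suspensor. These are shares of reads and are not corrected for gene length, so they do not rank the members by transcript number.

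**Figure D1:**
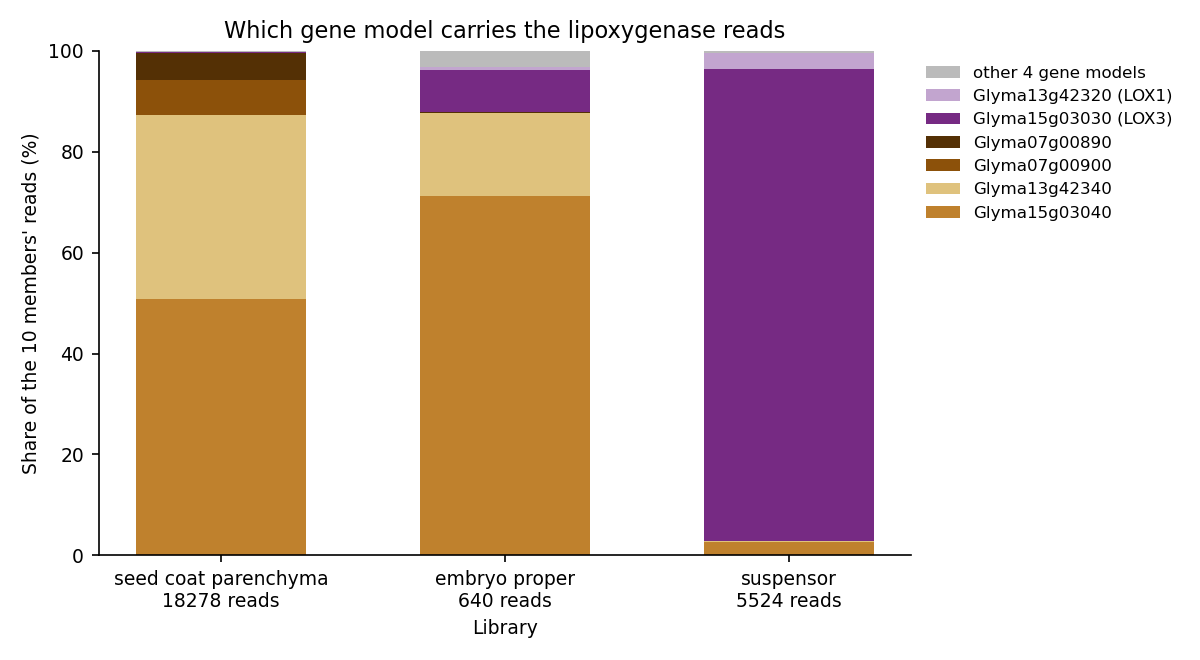
Share of the 10 members' reads (vertical axis, percent) that fell on each gene model in the seed coat parenchyma, embryo proper and suspensor libraries, with the number of member reads under each bar. The suspensor bar is almost wholly LOX3 (93.6%), while Glyma15g03040 is the largest part of the seed coat (50.8%) and embryo proper (71.2%) bars.

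More members were detected in the seed coat parenchyma than in either embryo library, and the embryo libraries had equal numbers. At a level of 1 CPM on the unscaled total and at least 3 reads, 7 of the 10 members were detected in the seed coat parenchyma, 4 in the embryo proper and 4 in the suspensor. The same rule detected 42.1%, 36.8% and 32.5% of all 66210 gene models, in the same order. The 4 of 10 in each embryo library lay near these shares. LOX1, with 12 seed coat reads, passed there only narrowly, and its level after the TMM scaling used below for levels was 0.834 CPM. By this rule LOX3 and Glyma15g03040 were detected in every library. Glyma15g03050 and Glyma07g00920 were detected in none of the 3 libraries. The floor of 3 reads that stands for a count of 0 equalled 0.209, 0.260 and 0.431 CPM for the seed coat parenchyma, embryo proper and suspensor.

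The seed isozymes LOX1 and LOX3 were both highest in the suspensor. LOX3 (Glyma15g03030) had 45 reads in the seed coat parenchyma, 54 in the embryo proper and 5173 in the suspensor, or 3.13, 4.68 and 743 CPM. The suspensor stood far above the other libraries, and the seed coat and embryo proper levels lay close together. The suspensor level was 238 times the seed coat level (counting interval 177 to 326) and 159 times the embryo proper level (122 to 212). The seed coat to embryo proper ratio of 0.668 had an interval of 0.440 to 1.01, so these levels did not differ beyond counting error. By number of reads LOX3 ranked 143rd among all gene models of the suspensor library, 17401st in the embryo proper and 21670th in the seed coat parenchyma.

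LOX1 (Glyma13g42320) had 12 reads in the seed coat parenchyma, 4 in the embryo proper and 170 in the suspensor, or 0.834, 0.347 and 24.4 CPM. Its order of libraries was led by the suspensor as well, at 29.3 times the seed coat level (16.3 to 57.8) and 70.4 times the embryo proper level (27.0 to 262). The seed coat and embryo proper levels again did not differ beyond counting error, with a ratio of 2.40 (0.729 to 10.2). LOX1 had 95.4% of its CPM summed over the 3 libraries in the suspensor, and LOX3 had 99.0% of its CPM there.

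LOX2 (Glyma13g42310), which adjoins LOX1 in identifier order, did not share that pattern. It had 29 reads in the seed coat parenchyma, 0 in the embryo proper and 0 in the suspensor. At 2.02 CPM (1.35 to 2.89), the seed coat level was low, and it was at least 7.75-fold higher than in the embryo proper and at least 4.67-fold higher than in the suspensor, with the other library set at 3 reads. The lower ends of the counting intervals were 5.91-fold and 3.57-fold.

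Glyma13g42340 and Glyma15g03040, on chromosomes 13 and 15, were highest in the seed coat parenchyma. Glyma15g03040 had 9289 reads in the seed coat parenchyma, 456 in the embryo proper and 150 in the suspensor, or 646, 39.5 and 21.6 CPM. Its seed coat level was the highest by far, and it was the only member with more than 100 reads in all 3 libraries. The seed coat level was 16.3 times that of the embryo proper (14.9 to 18.0) and 29.9 times that of the suspensor (25.5 to 35.4). The embryo proper stood 1.83-fold above the suspensor (1.52 to 2.22), beyond counting error. In the seed coat library it ranked 65th of all gene models by reads.

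Glyma13g42340 had 6668 reads in the seed coat parenchyma, 105 in the embryo proper and 3 in the suspensor, or 463, 9.10 and 0.431 CPM. The libraries followed the same order as for Glyma15g03040, but lay further apart. Its seed coat level was 50.9 times the embryo proper level (42.0 to 62.3), and the ratio to the suspensor was 1075 (368 to 5214). The embryo proper to suspensor ratio was 21.1 (7.03 to 104). Within libraries, Glyma13g42340 had 0.718 reads for each read of Glyma15g03040 in the seed coat parenchyma (0.696 to 0.741), 0.230 in the embryo proper (0.184 to 0.285) and 0.0200 in the suspensor (0.00408 to 0.0596). These intervals do not overlap, so the reads of the 2 gene models did not keep 1 ratio across the libraries. Whether seed coat material or its RNA was carried into the embryo sections was not tested.

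The chromosome 7 members with reads were nearly private to the seed coat parenchyma. Glyma07g00900 had 1276 reads there and 0 in each embryo library, a level of 88.7 CPM (83.9 to 93.7). That was at least 341-fold higher than in the embryo proper and at least 206-fold higher than in the suspensor, each set at 3 reads, with lower interval ends of 277-fold and 167-fold. Glyma07g00890 had 953 reads in the seed coat parenchyma, 1 in the embryo proper and 0 in the suspensor, a seed coat level of 66.2 CPM (62.1 to 70.6). The seed coat to embryo proper ratio was 764 with a wide interval of 137 to 30206, which rests on 1 embryo proper read and is not on the scale of the bounds at 3 reads. The seed coat level was at least 154-fold higher than in the suspensor (lower interval end 125-fold). Between the embryo proper and the suspensor no fold can be given for either gene model, since all those counts are at or under the floor.

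The remaining members had few reads. Glyma13g42330 had 0 reads in the seed coat parenchyma, 19 in the embryo proper and 26 in the suspensor, which is 1.65 CPM for the embryo proper and 3.74 CPM for the suspensor. It was the only member without a read in the seed coat parenchyma. The embryo proper to suspensor ratio was 0.441 (0.231 to 0.828), and the suspensor level was at least 17.9-fold that of the seed coat parenchyma at the floor (lower interval end 13.6-fold). Glyma15g03050 had 5, 1 and 2 reads in the seed coat parenchyma, embryo proper and suspensor, and its seed coat ratios to either embryo library had intervals that include 1. Glyma07g00920 had 1 read in the seed coat parenchyma and 0 in each embryo library.

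**Figure D2:**
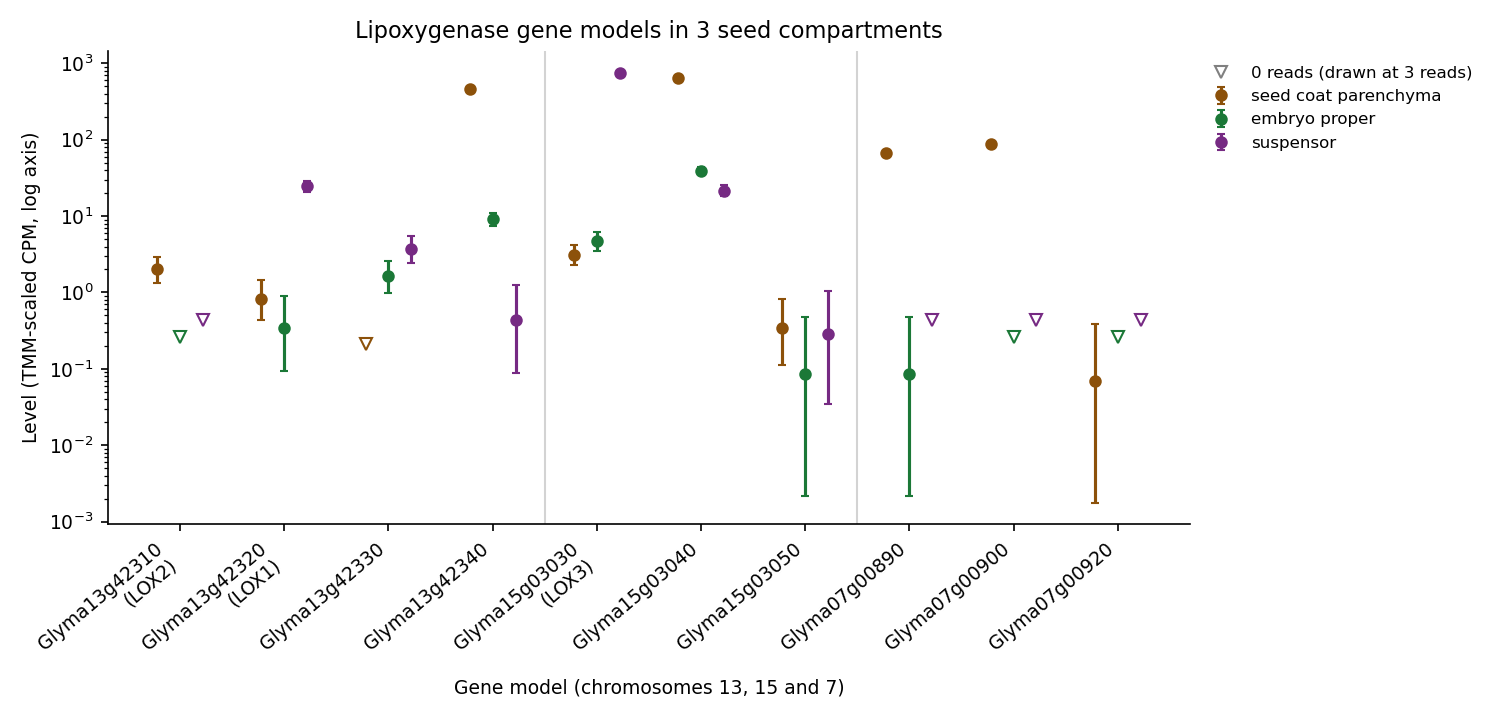
Level of each of the 10 gene models (TMM-scaled CPM, log axis) in the seed coat parenchyma, embryo proper and suspensor, 1 library each, with exact Poisson 95% intervals as bars and open triangles for 0 reads drawn at the floor of 3 reads. LOX3 reaches 743 CPM in the suspensor, and its neighbour Glyma15g03040 reaches 646 CPM in the seed coat parenchyma.

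The runs on chromosomes 13 and 15 each held members that were highest in different libraries. On chromosome 15, LOX3 had 0.00484 reads for each read of Glyma15g03040 in the seed coat parenchyma (0.00353 to 0.00649), 0.118 in the embryo proper (0.0876 to 0.157) and 34.5 in the suspensor (29.3 to 40.8). On chromosome 13, where Glyma13g42330 lies between them, LOX1 had 0.00180 reads for each read of Glyma13g42340 in the seed coat parenchyma (0.000929 to 0.00315), 0.0381 in the embryo proper (0.0102 to 0.100) and 56.7 in the suspensor (19.1 to 278). The adjoining LOX1 and Glyma13g42330 both had most reads in the suspensor. On chromosome 7, the reads of Glyma07g00890 and Glyma07g00900 lay in the seed coat parenchyma but for 1 read, at a ratio of 0.747 (0.686 to 0.813). How reads that match several gene copies were assigned is not given in the sources used here, so the counts of near-identical lipoxygenase copies are uncertain, and the share of reads that could be exchanged between members was not tested.

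Gene models beside the runs were counted in the same way. Among the 10 gene models listed on each side of each run, 60 in all, 22 averaged 5 CPM or more and another 22 had no read in any library. Of the 22 that averaged 5 CPM or more, counted at 4-fold, 2 were higher and 2 lower in the seed coat parenchyma than in the embryo proper, 1 was higher and 2 lower in the seed coat parenchyma than in the suspensor, and 3 were higher and 3 lower in the embryo proper than in the suspensor. Of all gene models that averaged 5 CPM or more, 15.0%, 13.7%, 18.7%, 14.9%, 15.2% and 14.0% were called, in the same order. With 22 gene models, the flanking counts are description only. The gene model listed between members on chromosome 7, Glyma07g00910, had 0 reads in every library.

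**Figure D3:**
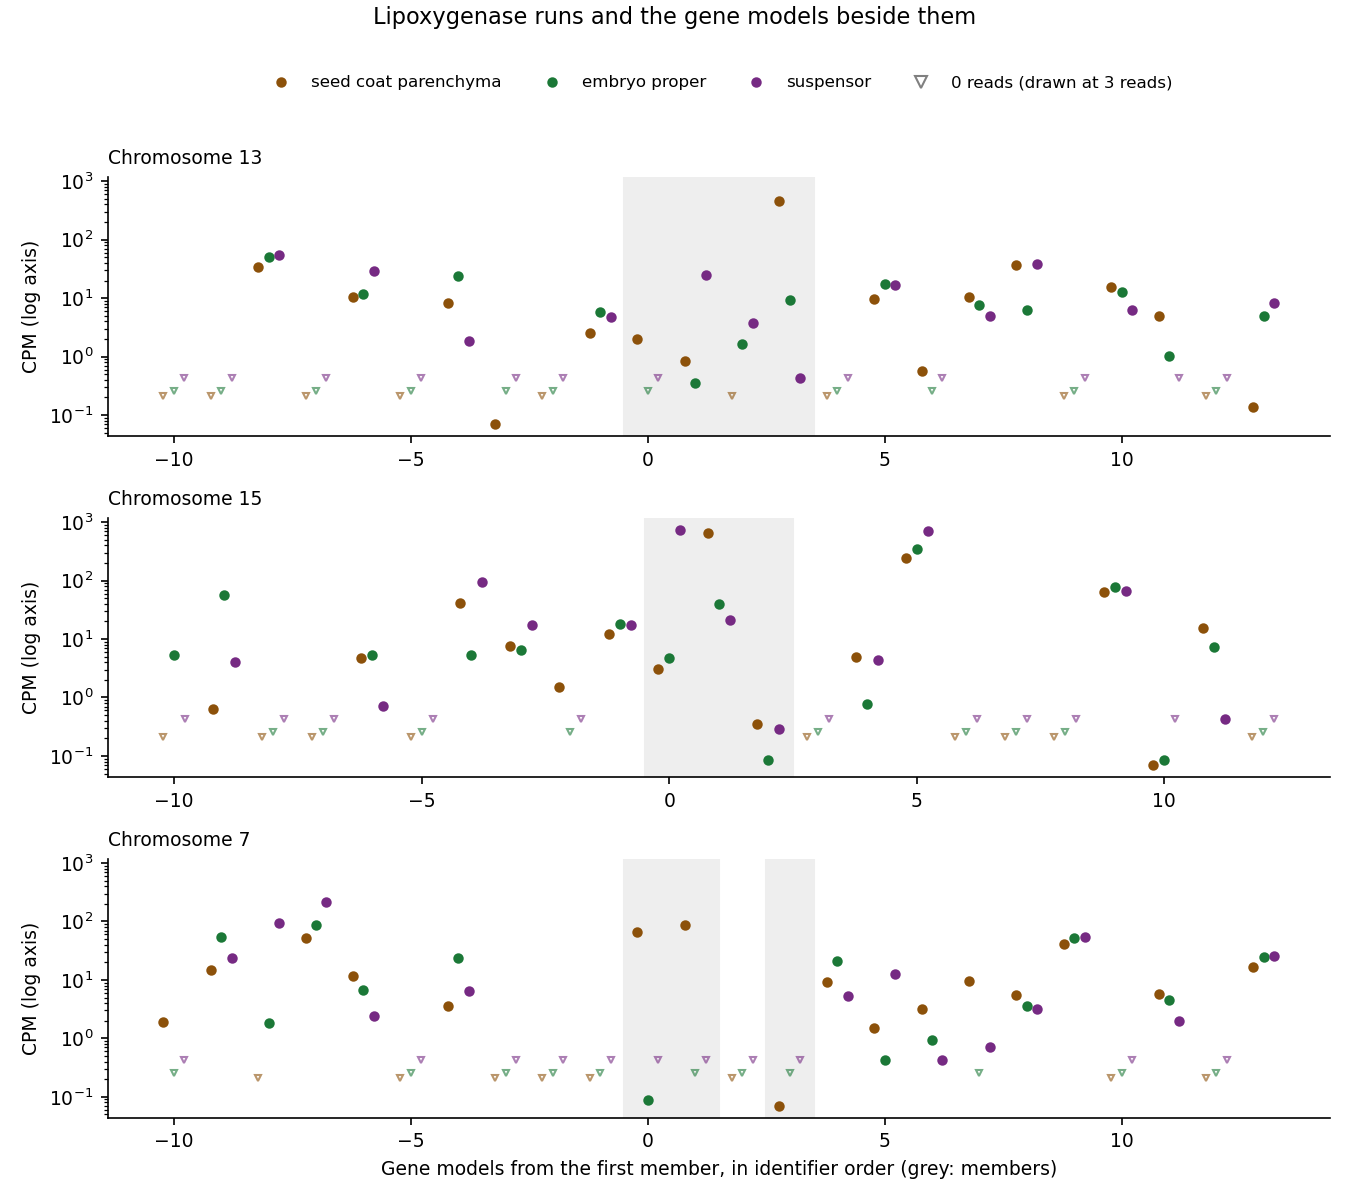
Levels (CPM, log axis) of the members (grey bands) and of the 10 gene models on each side of each run, in identifier order, for the seed coat parenchyma, embryo proper and suspensor, with open triangles for 0 reads at the floor of 3 reads. On chromosomes 13 and 15 the highest member levels of the suspensor and of the seed coat parenchyma fall on different gene models of the same run, and on chromosome 7 they lie in the seed coat parenchyma.

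For a comparison with all genes, differences were taken as log2(CPM + 1), where the added 1 shrinks the differences of low genes, and 4-fold was the size counted. Of the 10 members, 6 averaged 5 CPM or more and were compared, against 19940 gene models in all. The other 4 were LOX2, Glyma13g42330, Glyma15g03050 and Glyma07g00920, with means of 0.672, 1.79, 0.241 and 0.0232 CPM. A member that reached this mean through 1 high library had to differ between libraries, so the counts that follow describe the members and are no sign that the family differs from other genes.

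The seed coat parenchyma was set against the embryo proper in the first comparison. Glyma13g42340, Glyma15g03040, Glyma07g00890 and Glyma07g00900 were higher by 4-fold or more in the seed coat parenchyma, 4 of the 6 compared, while 15.0% of all gene models compared were. None of the 6 was lower by that size, against 13.7% of all gene models. The median log2 difference was 4.76 for the 6 members and -0.05 for all gene models compared. Glyma07g00900 differed by 6.49 on the log2 scale, where 170 of 19940 gene models lay at least as far in that direction, and Glyma13g42340 by 5.52, where 385 did. With 5 CPM added in place of 1 CPM, these differences were 4.23 for Glyma07g00900 and 5.05 for Glyma13g42340, so their order depends on the added constant.

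Against the suspensor, the same 4 members were higher by 4-fold or more in the seed coat parenchyma, and LOX1 and LOX3 were lower by 4-fold or more. Among all gene models compared, 18.7% were higher and 14.9% lower by that size. Glyma13g42340 lay at 8.34 on the log2 scale, where 21 of 19940 gene models were at least as far, and LOX3 at -7.49, where 122 were. The difference of Glyma13g42340 rested on 3 suspensor reads, and with 5 CPM added in place of 1 CPM it was 6.43. The median was 5.46 for the 6 members and -0.02 for all gene models compared. These comparisons share the seed coat library.

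Within the globular embryo, Glyma13g42340 was higher by 4-fold or more in the embryo proper than in the suspensor, and LOX1 and LOX3 were lower by 4-fold or more. Of all gene models compared, 15.2% were higher and 14.0% lower. LOX3 lay at -7.03 on the log2 scale, with 18 of 19940 gene models at least as far on the suspensor side. Glyma13g42340 lay at 2.82, where 1685 gene models were at least as far, and it rested on 3 suspensor reads. The median was 0.06 for the 6 members and 0.00 for all gene models compared. The embryo proper and suspensor libraries each also enter a comparison above.

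**Figure D4:**
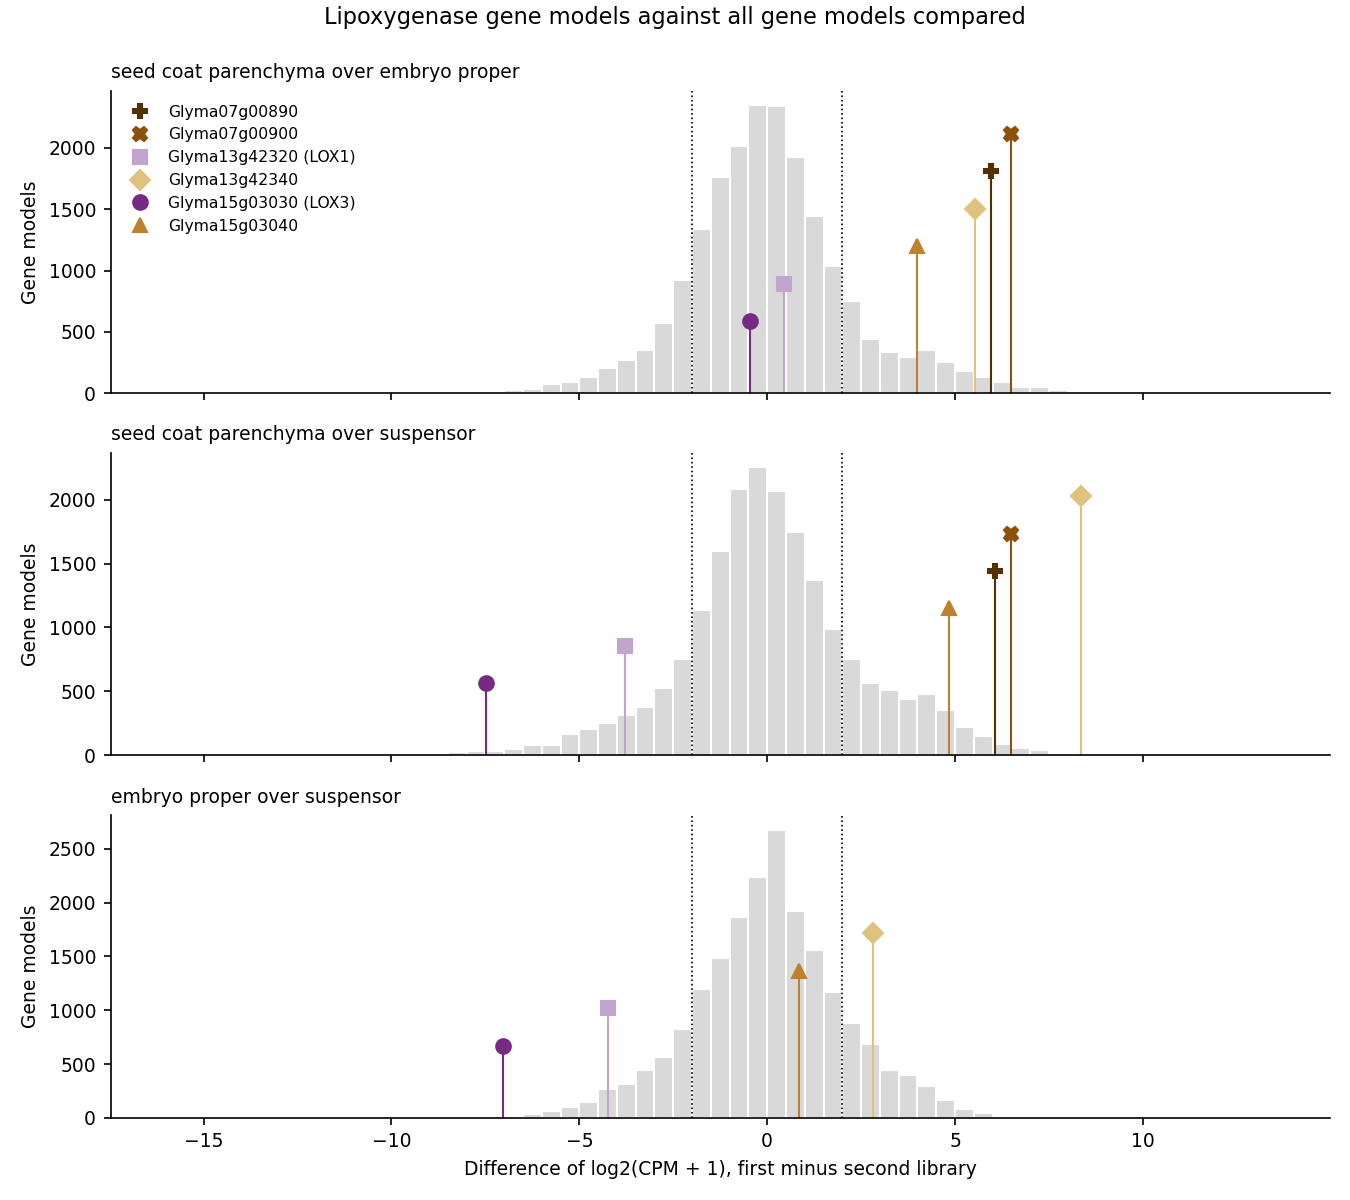
Number of gene models (grey bars, in bins of 0.5) by their difference of log2(CPM + 1) between the libraries named above each panel, first minus second, with the lipoxygenase gene models drawn as coloured stems whose height has no meaning and dotted lines at 4-fold. A gene model at or under 3 reads in both libraries has no stem. LOX3 lies at -7.49 and -7.03 where the suspensor is the second library, and Glyma13g42340 lies at 8.34 in the comparison of seed coat parenchyma with suspensor.

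The opposite directions of LOX3 and Glyma15g03040 were also set beside other adjoining genes, a description chosen after their values were seen. Over 7731 pairs of gene models that adjoin in identifier order and were both compared, 4.06% had members 4-fold apart in opposite directions between the seed coat parenchyma and the suspensor, and LOX3 with Glyma15g03040 was such a pair. A further 6.93% of pairs were 4-fold apart in the same direction, as Glyma07g00890 and Glyma07g00900 were. The percentage in opposite directions was 3.16% between the seed coat parenchyma and the embryo proper and 3.51% between the embryo proper and the suspensor. No pair of lipoxygenase members was among them, but only 2 of the 7731 pairs joined such members, too few to set against these percentages.

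Gene models with levels like those of LOX3, the member with the highest mean over the libraries (250.4 CPM), were also sought. By Euclidean distance of log2(CPM + 1) over the 3 libraries, 3 gene models outside the family lay within a distance of 1. The same number was not taken for other gene models, so it does not say whether LOX3 stands apart. The nearest was Glyma18g02220, on chromosome 18, at a distance of 0.71, with 4.31, 4.42 and 489 CPM in the seed coat parenchyma, embryo proper and suspensor. Next came Glyma07g18020, on chromosome 7, at 0.90, with 2.15, 8.50 and 589 CPM in the same order. The files and the reference used here give these gene models no name.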

How the data were processed

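The authors deposited 1 table per library, with a count of mapped reads for each gene model per the file headers. Per the submitters' processing notes, Bowtie was used. Neither its version nor the build, the gene annotation, the strand setting or the treatment of multiply matching reads is given in the sources. Per the labels' protocols, 3 to 5 ng of total RNA was amplified, ligated products had 15 PCR cycles, and reads were single-end and 76 nt long. No molecular identifiers are mentioned, so reads are not independent molecules.

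From these counts, CPM was computed with TMM factors from edgeR 4.0.16 in R 4.3.3, of 1.21 for the seed coat parenchyma, 0.994 for the embryo proper and 0.832 for the suspensor. Ratios have 95% exact Clopper-Pearson intervals, levels exact Poisson intervals and shares Wilson intervals. A count of 0 was set at 3 reads for fold bounds. Alternatives included DESeq2 1.42.0 size factors. Python 3.11.15, SciPy 1.17.1 and matplotlib 3.10.9 were used. The 4-fold calls of the seed coat parenchyma against each embryo library were tested on simulated Poisson counts. In these only the seed coat library held changed gene models. The calls between the embryo proper and the suspensor, the intervals and the shares were not tested in this way. All 10 members were named whatever their values, and of other gene models those inside a run and the 2 most like the member with the highest mean CPM. The members and lists were chosen with earlier results of these data known. Lists of the jasmonate pathway and of cell type markers, and promoter motifs, were planned but not used here, because the identifiers match no name in the reference used.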

Additional observations from a re-analysis of the deposited data

How the results depend on the processing

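No paired analysis was possible because each compartment has 1 library. The numbers of members past 4-fold were recomputed under 13 other settings, in each direction of each comparison. Of 78 such numbers, 74 stayed within 1.5 times. At a mean of 20 CPM or more, LOX1 was no longer compared, and the number lower than in the suspensor was 1 for the seed coat parenchyma and 1 for the embryo proper. At 8-fold, 0 members were higher in the embryo proper than in the suspensor, and with 5 CPM added the number was 0 too, because Glyma13g42340 then missed the threshold. With no minimum the number lower in the seed coat parenchyma than in the suspensor was 3, the added member being Glyma13g42330. Of 128 recomputed log2 differences of single members, 14 moved beyond counting error and 0 changed direction. The settings that only changed the added CPM could not change a direction. Totals without the 10 members nearly repeat the unscaled totals, so the settings are not independent checks. Some of the 14 came from changed library totals. With unscaled totals, for seed coat parenchyma over suspensor, Glyma15g03040 stood at 5.37 instead of 4.84 and LOX3 at -7.02 instead of -7.49. Totals without the 10 members moved both as well. Glyma15g03040 also moved without the 50 most abundant gene models, and over the embryo proper under each of these totals. The rest of the 14 moved with 5 CPM added. Adding 5 CPM instead of 1 CPM shrank the log2 differences: for seed coat parenchyma over suspensor Glyma07g00900 stood at 4.23 instead of 6.49, Glyma07g00890 at 3.83 instead of 6.07, Glyma13g42340 at 6.43 instead of 8.34 and LOX1 at -2.34 instead of -3.79. For Glyma07g00890 and Glyma07g00900, with 0 suspensor reads, the counting error is wide, so these shifts are not among the 14. Unscaled totals moved the median log2 difference of all gene models to 0.25 (seed coat parenchyma over embryo proper), 0.54 (seed coat parenchyma over suspensor) and 0.23 (embryo proper over suspensor). Depth limits Glyma15g03050 and Glyma07g00920, whose counts of 5 or fewer give no order of libraries.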
